A study of Rattus norvegicus with 60 samples.

Results

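The results describe 10 genes of the epidermal growth factor (EGF) and hepatocyte growth factor (HGF) systems in rat liver cells, 6 of which encode EGF family ligands (Egf, Tgfa, Hbegf, Areg, Btc and Nrg1), 2 ErbB receptors (Egfr and Erbb3), and the remaining pair HGF and its receptor (Hgf and Met). They were chosen by symbol. All 10 had at least 1 probe set, and they are 10 of the 14217 genes tested. A gene with several probe sets was read from the one with the highest mean over the 60 arrays. Livers of Wistar rats, 8 weeks old, were separated into hepatocytes (HC) and mesenchymal cells (MC), and the RNA of each fraction was hybridised to 30 arrays. Animals received phenobarbital (PB), a barbiturate that induces liver enzymes, or cyproterone acetate (CPA), a synthetic steroid that blocks androgen receptors, acts as a progestin and enlarges the rat liver. In rodents, tumour promotion in liver is known for each of them. PB was given at 50 mg/kg to rats labelled mostly male, once by gavage and read at 24 h, or in the drinking water for 14 d, with water controls (H2O) at both times and 3 arrays in each group and fraction. CPA was given at 100 mg/kg to female rats, by 1 gavage read at 24 h or on each of 6 d, with 3 arrays per group and fraction. Its controls received corn oil (CO) at 10 ml/kg, with 5 arrays at 24 h and 3 at 6 d per fraction. A further corn oil group at 24 h, CO_Co, has 4 arrays per fraction, and the labels do not say what sets it apart. The labels name no transgene or mutation in any group. PB and CPA therefore differ in sex and vehicle as well as in compound, and no comparison between them was made. The labels do not say whether arrays of a group came from separate animals, so p-values measure the spread between these arrays.

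EGF family ligands are made as membrane-bound precursors, cut loose by proteases such as Adam17, and bind receptor tyrosine kinases of the ErbB family. Egfr binds Egf, Tgfa, Hbegf, Areg and Btc, whereas neuregulin 1, the product of Nrg1, binds Erbb3 and its relative Erbb4. HGF is a separate factor, secreted in an inactive form by non-parenchymal liver cells and bound by Met on hepatocytes. Both systems are known for driving hepatocyte division after partial removal of the liver.

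The bases just before the outer annotated start of 4 members that the results turn on are shown first, read 5' to 3' along the gene from RefSeq's promoter table for the GRCr8 build, which holds 8 of the 10 members. Egf lies at chr2:220976332-220976547 (minus strand), Egfr at chr14:95378376-95378625 (plus strand), Tgfa at chr4:120175469-120175548 (plus strand) and Hgf at chr4:19700468-19700717 (minus strand). Capitals mark matches, on either strand, to the motifs searched, none of which contains another. These were the TATA box (written TATAAA), the GC box (written GGGCGG), the CCAAT box, the AP-1 site (written TGANTCA), the cAMP response element (written TGACGTCA), the E-box (written CACGTG), the steroid receptor half-site (written AGAACA) and the nuclear receptor half-site (written AGGTCA).
Egf: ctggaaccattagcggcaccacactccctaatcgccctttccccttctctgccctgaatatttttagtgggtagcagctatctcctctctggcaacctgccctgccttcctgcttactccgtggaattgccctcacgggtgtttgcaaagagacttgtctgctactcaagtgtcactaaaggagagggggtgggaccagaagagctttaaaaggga
Egfr: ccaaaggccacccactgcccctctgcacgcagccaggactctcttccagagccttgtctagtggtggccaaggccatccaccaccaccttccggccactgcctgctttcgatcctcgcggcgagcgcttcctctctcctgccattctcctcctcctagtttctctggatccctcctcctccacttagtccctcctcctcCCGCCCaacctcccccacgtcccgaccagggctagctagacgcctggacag
Tgfa: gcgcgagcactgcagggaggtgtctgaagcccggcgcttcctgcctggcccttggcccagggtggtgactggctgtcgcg
Hgf: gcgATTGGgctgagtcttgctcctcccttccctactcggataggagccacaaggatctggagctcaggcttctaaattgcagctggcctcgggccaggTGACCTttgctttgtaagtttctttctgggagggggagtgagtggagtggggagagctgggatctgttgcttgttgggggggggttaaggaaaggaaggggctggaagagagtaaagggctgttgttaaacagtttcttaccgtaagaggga
None of these letters was found in the 216 bases of Egf or the 80 bases of Tgfa. The 250 bases of Egfr hold 1 GC box, which 30.5% of 33469 promoters hold in the same window. The 250 bases of Hgf hold 1 CCAAT box, found in 34.0% of promoters, and 1 nuclear receptor half-site, found in 14.1%. A match describes the letters and does not show a binding site.

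Before treatment effects, the fractions and the labels were checked. Values are log2 levels, so a difference of 1 is a doubling. Array medians were 3.25 to 3.39 in HC and 3.39 to 3.44 in MC, and arrays of a group correlated at 0.938 to 0.997. The mean of 17 hepatocyte markers was 11.7 to 11.8 in the vehicle groups of HC and 8.43 to 10.1 in those of MC, so RNA of hepatocyte genes was present in MC. The means of 12 macrophage and 15 sinusoidal endothelial markers were 9.71 to 10.5 and 9.19 to 9.79 in MC, against 4.31 to 5.41 and 3.50 to 4.28 in HC. The mean of 14 markers of the stellate cell, the mesenchymal cell proper of the liver, was 4.49 to 4.92 in MC against 3.08 to 3.51 in HC. These markers thus read higher in MC, by less than the macrophage and endothelial means. Their level in MC was low on this scale, which does not give the number of stellate cells. The third array of both the PB and the H2O groups at 24 h is labelled female in each fraction, yet read the Y-linked gene Eif2s3y at 6.94 to 7.26, within the range of the other PB and H2O arrays and above every corn oil or CPA array (0.708 to 1.43). In these bulk samples, fewer cells of a type and less RNA per cell cannot be told apart.

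In vehicle-treated animals, Egf, Tgfa and Egfr were higher in HC, and Hgf and Hbegf were higher in MC. The comparison averaged the 5 vehicle groups of each fraction with limma, and calls needed a Benjamini-Hochberg adjusted p below 0.05. All 10 members were called, where 84.3% of all genes were, so a call by itself says little here and the sizes carry the description. Egfr stood 5.45 higher in HC (SE 0.19), with HC arrays from 8.80 to 10.42, median 9.25, and MC arrays from 2.79 to 6.06, median 3.60 (n = 18 each). The lowest HC array lay well above the highest MC array. Egf stood 3.27 higher in HC (SE 0.13), with HC arrays from 5.92 to 8.40, median 7.71, and MC arrays from 3.57 to 4.67, median 4.29. Tgfa, a ligand that hepatocytes can make for their own Egfr, stood 2.09 higher in HC (SE 0.13), with arrays from 4.96 to 5.91 against 2.35 to 4.33. For each of these genes the HC and MC arrays did not overlap, as held for 8.38% of all genes in this direction.

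The MC fraction had the higher level of the remaining ligands that reached a mean of 4 in any vehicle group. Hgf stood 1.73 lower in HC (SE 0.16), where its group means lay between 2.59 and 3.06. In MC its vehicle arrays ran from 3.43 to 6.62, median 4.75. Hbegf, a ligand that is anchored in the membrane and also binds heparin, stood 1.55 lower in HC (SE 0.16), with group means of 2.27 to 2.79 there and vehicle arrays from 3.21 to 5.65, median 4.34, in MC. HC and MC vehicle arrays of these genes did not overlap either (13.6% of all genes in this direction). The spread of both genes in MC was wide, with SDs of 0.81 and 0.75 over the 18 arrays, against 0.25 and 0.21 in HC.

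The other members were dim, meaning a mean under 4 in all 9 groups, in both fractions (Areg, Btc, Erbb3 and Met) or in MC (Nrg1 and Tgfa). The receptor genes Erbb3 and Met had group means of 2.88 to 3.32 and 2.36 to 2.79 in HC, and 2.52 to 2.88 and 1.55 to 1.71 in MC. Met was 0.91 higher in HC (SE 0.09) with no overlap of arrays, on its only probe set. Areg and Btc had group means of at most 1.87 and 3.13 in any group of either fraction. Nrg1 was 0.80 higher in HC, with vehicle group means no higher than 3.24. Differences between dim values understate any difference in RNA, since probe background makes up much of the signal. Levels of different genes come from different probe sets and are not compared with each other.

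**Figure D1:**
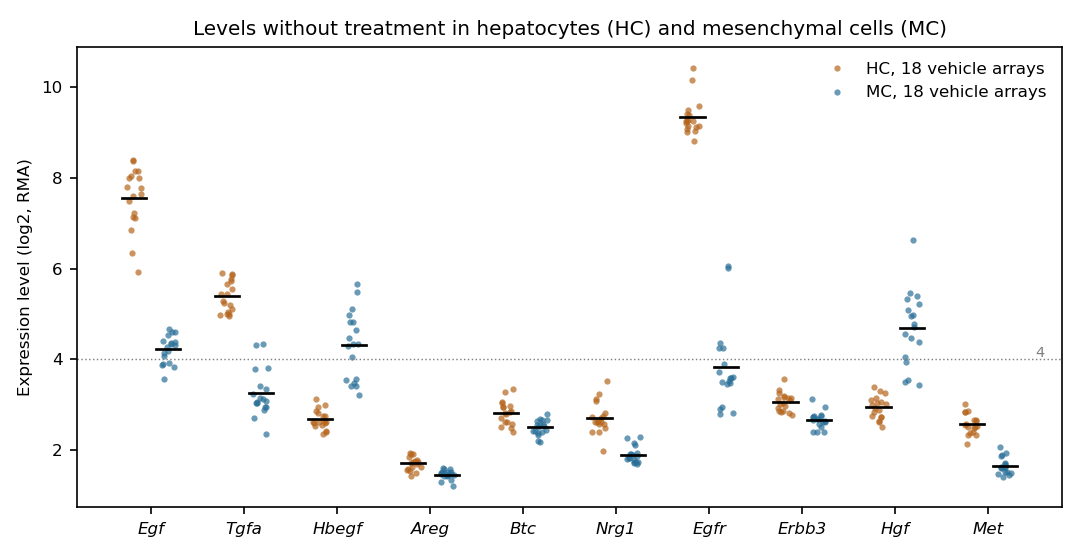
Log2 levels of the 10 genes (x axis) on the 18 vehicle arrays of hepatocytes (brown) and the 18 of mesenchymal cells (blue), with bars at the means of the arrays and a dotted line at 4, the level under which a gene is called dim. Egfr, Egf and Tgfa lie higher in hepatocytes with no overlap, Hgf and Hbegf lie higher in mesenchymal cells, and heights of different genes are not comparable.

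CPA lowered both Egf and its receptor in hepatocytes, raised Tgfa, and raised Nrg1 on 4 of its 8 probe sets. At 24 h, 5 of the 10 members were called, where 34.2% of all genes were (22.5% higher and 11.7% lower). At 6 d, 4 of 10 were called, where 24.2% of all genes were. The largest change was that of Egf, which encodes the founding ligand of Egfr. Its corn oil arrays at 24 h read 7.22, 7.65, 7.99, 7.77 and 8.03, and its CPA arrays 5.51, 5.23 and 6.19. All 3 treated arrays lay below all 5 controls, as held for 13.5% of all genes (23.5% had all treated arrays above). Egf fell by 2.09 on the log2 scale (SE 0.30, limma adjusted p = 5.13e-06), which is 4.25-fold. After 6 d the corn oil arrays read 7.14, 7.99 and 8.40, and the CPA arrays 4.95, 4.64 and 4.44. The groups were again fully apart, as held for 18.8% of all genes in this direction and 23.7% in the other, and Egf fell by 3.17 (SE 0.34, adjusted p = 9.75e-08), which is 9.0-fold. The 6 d change was 1.08 larger than the 24 h change (95% interval of the difference -1.94 to -0.23, adjusted p = 0.0941), so a growth of the fall with time did not pass the test.

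Across all 9 HC groups, Egf was lowest after 6 d of CPA (4.68 ± 0.26, SD, n = 3), then after 1 dose (5.65 ± 0.49, n = 3). The 14 d groups came next, with H2O at 6.38 ± 0.47 and PB at 6.40 ± 0.34, whose arrays overlap each other. The remaining groups had means of 7.37 to 7.85 and overlapping arrays. The H2O arrays at 14 d read 6.35, 5.92 and 6.86, all below the H2O arrays at 24 h (7.59, 7.49 and 8.36). No test of time between vehicle groups was made. After 6 d of CPA, the HC level of Egf came to within the range of the MC vehicle arrays (3.57 to 4.67) for 2 of its 3 arrays.

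Egfr moved in the same direction as its ligand. Its HC corn oil arrays at 24 h read 9.21, 9.27, 9.04, 8.80 and 9.07, and the CPA arrays 8.00, 7.67 and 7.92. No array overlapped, and Egfr fell by 1.21 (SE 0.19, adjusted p = 1.31e-05), or 2.32-fold. At 6 d, controls read 9.15, 9.01 and 9.26 and CPA arrays 8.77, 7.83 and 8.22. The first CPA array lay nearest to the controls, yet below all 3, and Egfr fell by 0.86 (SE 0.21, adjusted p = 0.00317). The difference between the 2 times was 0.35 (95% interval -0.85 to 1.55, adjusted p = 0.807). Of the other Egfr probe sets, 1385413_at fell by 0.87 at 24 h (adjusted p = 0.000238 over all 31042 probe sets, of which 23.1% were called) and was not called at 6 d. The remaining one, 1370830_at, read -1.04 and -0.91 at the 2 times and was called at neither (adjusted p = 0.0801 and 0.221).

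Tgfa rose while Egf fell. Its HC corn oil arrays at 24 h read 4.97, 5.05, 5.45, 5.43 and 4.96, and the CPA arrays 6.40, 5.78 and 5.75. The treated arrays were all higher, and Tgfa rose by 0.80 (SE 0.24, adjusted p = 0.00919). Without the first CPA array the change was 0.59 (adjusted p = 0.0947), so that call rests on 1 array. At 6 d the controls read 5.87, 4.99 and 5.25 and the CPA arrays 6.28, 6.61 and 6.53. All treated arrays again lay higher, and Tgfa rose by 1.10 (SE 0.26, adjusted p = 0.00252), or 2.15-fold. Its second probe set, 1387450_at, gave 0.80 and 1.23 (adjusted p = 0.000365 and 1.12e-05).

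Nrg1, which encodes a ligand of Erbb3 and Erbb4, rose from a level that was dim in every vehicle group. At 24 h the HC corn oil arrays read 2.76, 3.24, 2.63, 2.48 and 2.40, and the CPA arrays 4.26, 4.69 and 3.08. The third treated array lay inside the control range and the other pair above it, and the change was 1.31 (SE 0.25, adjusted p = 0.000149). At 6 d the controls read 3.08, 3.52 and 3.12 and the CPA arrays 4.45, 4.40 and 3.90, with no overlap and a change of 1.01 (SE 0.28, adjusted p = 0.0081). The probe set read here, 1369783_a_at, was chosen by its mean over all 60 arrays (2.51), the CPA arrays among them. Another, 1371218_a_at, had a mean of 2.44, and its HC CPA means were 2.47 and 2.41 against 4.01 and 4.25. The choice was therefore not independent of the CPA change. The probe sets of Nrg1 did not move alike. Of its 8 probe sets, 4 rose at both times (1369783_a_at, 1370607_a_at, 1371211_a_at and 1371212_at, by 0.77 to 1.35). The other 4 read between -0.26 and -0.13 and were called at neither time. Nrg1 gives many transcripts with different ends, and the files do not say which of them each probe set reads.

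**Figure D2:**
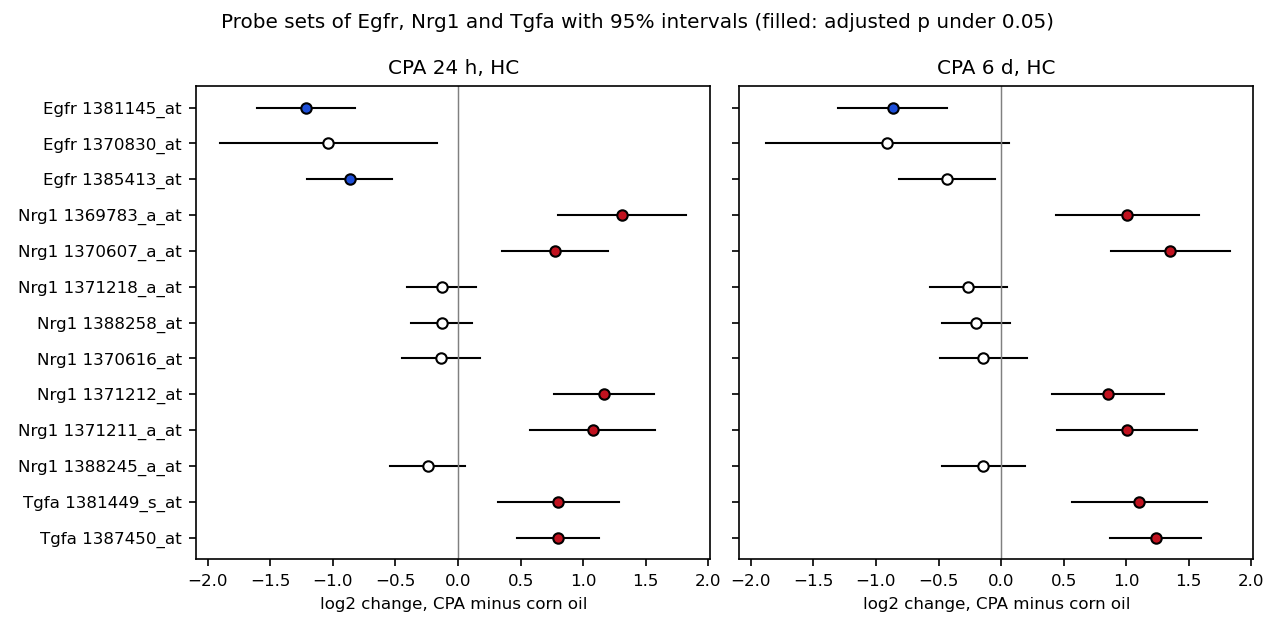
Log2 change (x axis, CPA minus corn oil, with 95% intervals) of each probe set of Egfr, Nrg1 and Tgfa in hepatocytes at 24 h (left) and 6 d (right); filled points were called over all 31042 probe sets. Both Tgfa probe sets rise, all Egfr probe sets lie left of 0, and 4 of 8 Nrg1 probe sets rise while the other 4 lie between -0.26 and -0.13.

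Of the remaining members, Hgf was called in HC at 24 h of CPA only. It was dim in HC and fell by 0.47 at 24 h (SE 0.16, adjusted p = 0.0292), from corn oil arrays of 3.06, 2.74, 3.40, 3.10 and 3.00 to CPA arrays of 2.67, 2.49 and 2.63. The call was lost without CPA array 2 or 3 (adjusted p = 0.126 and 0.0599) or the third control (0.0818), and with both corn oil groups as the control (-0.36, adjusted p = 0.0695), and at 6 d the change was 0.04 (adjusted p = 0.898). Hbegf, Areg, Btc, Erbb3 and Met were called at neither time, with changes between -0.34 and 0.10. Met, the HGF receptor, read 0.10 at 24 h (95% interval -0.35 to 0.55) and -0.34 at 6 d (-0.84 to 0.17).

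Markers of other cell types, and of dividing cells of any type, moved in the same HC groups. The mean of 8 dividing-cell markers was 6.84 ± 0.91 after CPA for 24 h against 3.62 ± 0.48 (exact permutation p = 0.0179, two-sided) and 6.77 ± 0.19 against 3.81 ± 1.17 at 6 d (exact p = 0.1, the smallest that 3 against 3 arrays allow). The macrophage mean was 4.59 ± 0.71 against 4.90 ± 0.94 at 24 h, and 6.58 ± 0.18 against 5.41 ± 0.17 at 6 d, where 10 of 12 markers had all CPA arrays above all controls. The mean of 7 cholangiocyte markers was 3.20 against 2.85 at 24 h and 3.58 against 2.94 at 6 d. The hepatocyte mean was 0.21 and 0.29 lower. The part of these shifts in the changes of the members was not tested.

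**Figure D3:**
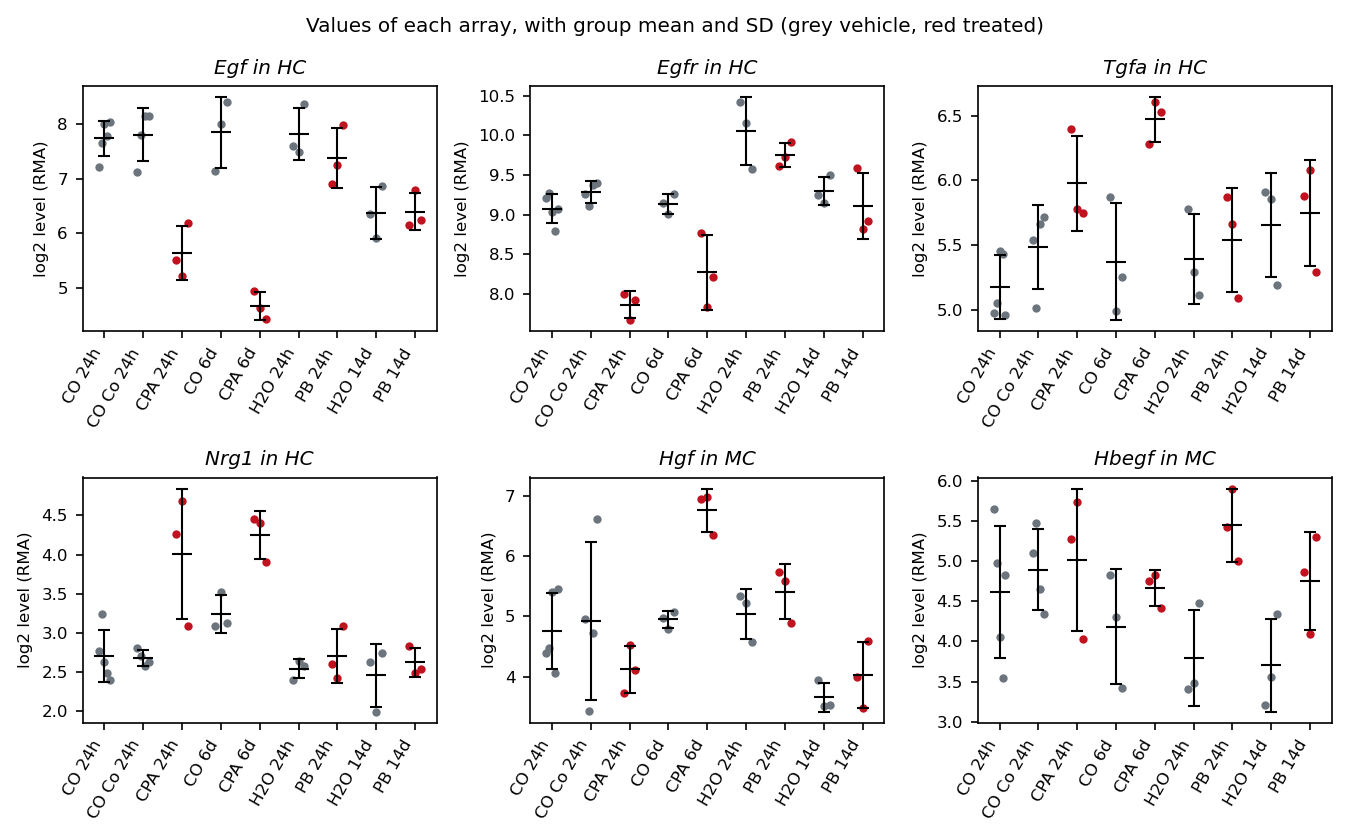
Log2 level (y axis) on each array of Egf, Egfr, Tgfa and Nrg1 in hepatocytes and of Hgf and Hbegf in mesenchymal cells, by group (x axis); grey points are vehicle arrays, red points treated arrays, and black marks the group mean and SD. Egf and Egfr are lowest and Tgfa and Nrg1 highest in the CPA groups, and Hgf in mesenchymal cells is highest after 6 d of CPA.

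In the MC fraction no member passed the test over genes under CPA. At 24 h, 0 of 10 members were called, where 2.54% of all genes were, and 2 members had an unadjusted p under 0.05. At 6 d, 0 of 10 were called, where 2.23% of all genes were, and 3 members had an unadjusted p under 0.05. Hgf, the factor that non-parenchymal cells supply to hepatocytes, read 4.98, 4.79 and 5.08 in the corn oil arrays at 6 d and 6.95, 6.98 and 6.35 in the CPA arrays. All treated arrays lay above all controls, as held for 13.3% of all genes, and the difference was 1.81 (SE 0.50, 95% interval 0.78 to 2.84, adjusted p = 0.0549), or 3.51-fold. It passed in 4 of 13 alternatives, which were array quality weights (1.97, adjusted p = 0.000242), the mean hepatocyte marker level as covariate (1.80, adjusted p = 0.0369), a term for the labelled sex, whose labels are in doubt (adjusted p = 0.0476), and dim genes left out (adjusted p = 0.0484). It missed the threshold in the other 9, among them median centring, the replicate block and every single array left out, with adjusted p up to 0.196. At 24 h the same comparison read -0.63 (95% interval -1.55 to 0.29), with CPA arrays of 3.74, 4.52 and 4.12 and corn oil arrays of 4.39, 4.48, 5.40, 4.06 and 5.46.

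The 2 times differed. The Hgf change at 6 d exceeded that at 24 h by 2.44 in MC (SE 0.51, adjusted p = 0.00713), the only one of the 10 members called in this comparison, where 0.619% of all genes were. In HC the same comparison called 0 of 10 members (limma), where 11.1% of all genes were, and 1 member, Egf, had an unadjusted p under 0.05. One vehicle array of the CO_Co group at 24 h read 6.62, inside the range of the CPA arrays at 6 d, while the other 3 of that group read 4.95, 3.43 and 4.72. Across the 9 MC groups the 6 d CPA mean was the highest (6.76 ± 0.35, n = 3) and H2O at 14 d the lowest (3.66 ± 0.24, n = 3). The stellate cell marker mean in MC was 4.34 ± 0.11 after 6 d of CPA and 4.49 ± 0.55 in its controls (exact permutation p = 0.8), and the endothelial mean 9.16 ± 0.33 against 9.47 ± 0.25 (exact p = 0.4). The dividing-cell mean was 7.18 ± 0.15 against 4.74 ± 0.13 (exact p = 0.1), the cholangiocyte mean 2.70 ± 0.14 against 2.22 ± 0.04 (exact p = 0.1) and the B cell mean 4.54 ± 0.09 against 5.02 ± 0.45 (exact p = 0.1). The part of these shifts in the Hgf difference was not tested.

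At 6 d Nrg1 and Egf in MC read on the same side of 0 as in HC, and neither passed the test over genes. Nrg1 differed by 0.44 at 6 d (adjusted p = 0.0508), with CPA arrays of 2.24, 2.26 and 2.01 above controls of 1.71, 1.75 and 1.73, all of them dim. At 24 h it differed by 0.38 (adjusted p = 0.0543). Fitted one by one over all 31042 probe sets, 2 of the 8 Nrg1 probe sets were called higher in MC at 24 h, where 1.23% of all probe sets were called. These were 1371212_at (0.57, adjusted p = 0.0133) and 1371211_a_at (0.80, adjusted p = 0.0241), and 0 of 8 were called at 6 d (limma, 3 with an unadjusted p under 0.05). Egf differed by -0.75 at 6 d (adjusted p = 0.217), with CPA arrays of 3.78, 3.73 and 3.27 all below controls of 4.31, 4.39 and 4.33 (8.94% of all genes lay apart in this direction), and by 0.00 at 24 h.

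The difference between the fractions was tested directly. The CPA change of Egf was lower in HC than in MC by 2.08 at 24 h (SE 0.40, adjusted p = 0.000382) and by 2.42 at 6 d (SE 0.45, adjusted p = 0.000331). Egf in MC averaged 4.03 and 4.35 under corn oil at the 2 times, near the MC array medians (3.39 to 3.44). Its lowest MC array read 2.78, after 14 d of PB. Egfr in MC averaged 3.43 under corn oil at 24 h, also near those medians. The part of these starting levels in the differences was not tested. The CPA change of Nrg1 was higher in HC by 0.93 at 24 h (SE 0.28, adjusted p = 0.0276), a call that was lost in 7 of 20 alternatives. It was lost with the mean of its 8 probe sets (0.28, adjusted p = 0.139), with each array centred on its median (0.86, adjusted p = 0.0535) and without any of 5 single arrays. These were HC CPA array 1 or 2, HC corn oil array 4 or 5, and MC CPA array 3, with differences of 0.59 to 0.87. That of Hgf was lower in HC by 1.77 at 6 d (SE 0.54, adjusted p = 0.0472). Leaving out any of 11 of the 12 arrays raised that adjusted p to between 0.0566 and 0.126, so it lies at the edge of the threshold. At 24 h, 2 of 10 members were called, where 8.43% of all genes were, and at 6 d 2 of 10, where 4.58% were. For Egfr the difference was -1.66 at 24 h (adjusted p = 0.0553), at the edge of the threshold on the other side. It passed with the mean of its probe sets (-1.20, adjusted p = 0.0324), with median centring (-1.73, adjusted p = 0.0368), with the sex term (adjusted p = 0.0308), with the replicate block (adjusted p = 0.0299) and without MC CPA array 1 (-2.05, adjusted p = 0.0242) or MC corn oil array 4 (-1.70, adjusted p = 0.0442). For Tgfa the difference was 1.02 at 6 d (adjusted p = 0.215), and of 16 alternatives it passed only with the mean of its probe sets (1.04, adjusted p = 0.0486).

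No member passed the test under PB in hepatocytes. At 24 h and 14 d, 0 of 10 were called by limma, where 0.0774% and 0.0633% of all genes were, and no member had an unadjusted p under 0.05. Egf read 6.90, 7.24 and 7.97 at 24 h of PB against 7.59, 7.49 and 8.36, and 6.16, 6.79 and 6.25 at 14 d against 6.35, 5.92 and 6.86. The groups overlapped at both times, and the 95% intervals of the change were -1.14 to 0.26 and -0.68 to 0.72. The intervals of Egfr ran from -0.73 to 0.14 and from -0.63 to 0.25, and those of Tgfa from -0.40 to 0.69 and from -0.46 to 0.64. Met read 3.57 on the first PB array at 14 d and 2.23 and 2.21 on the others. Without the third array of both groups at 24 h, whose sex label is in doubt, 0 members were called as well.

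In MC, Egf fell after 14 d of PB, and Hbegf read higher at 24 h without passing the test. At 24 h, 0 of all 14217 genes were called (0%), and 1 member had an unadjusted p under 0.05. That member was Hbegf, with H2O arrays of 3.41, 3.48 and 4.48 and PB arrays of 5.43, 5.90 and 5.00. The treated arrays all lay higher, as held for 6.84% of all genes, and the difference was 1.65 (95% interval 0.63 to 2.67, adjusted p = 0.999). Without the third array of both groups it was 2.22 (adjusted p = 0.385), and with array quality weights 2.06 (adjusted p = 0.000671). At 14 d Hbegf read 4.86, 4.09 and 5.30 against 3.21, 3.56 and 4.34, which overlap, with a difference of 1.05 (adjusted p = 0.131). At 14 d same-numbered arrays pair, and with the replicate number as a block Hbegf passed (adjusted p = 0.0375), as did Tgfa, dim in MC (-0.71, adjusted p = 0.0433), so that 3 members were called where 32.6% of all genes were.

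Egf in MC at 14 d read 2.88, 3.31 and 2.78 under PB and 4.54, 3.88 and 3.93 under H2O, with every PB array lower (17.0% of all genes). It was the 1 member called of 10, where 18.4% of all genes were, and fell by 1.13 (SE 0.27, adjusted p = 0.0101). The hepatocyte marker mean of the same MC arrays was 8.23 ± 0.76 under PB and 10.1 ± 0.16 under H2O (exact permutation p = 0.1), with 15 of 17 markers lower on every PB array. With that mean as a covariate the Egf difference was -1.02 (adjusted p = 0.11). It was also not called without the first PB array (adjusted p = 0.0565) or the first H2O array (0.0604). The macrophage mean was 10.4 against 9.71 and the endothelial mean 9.82 against 9.19. A difference between HC and MC in the PB change passed the test for 0 of 10 members at 24 h and at 14 d (limma), where 0% and 10.1% of all genes were called and 1 member at each time had an unadjusted p under 0.05. With HC and MC arrays of 1 number as a block, the 14 d difference of Egf passed (1.15, adjusted p = 0.0264), the 1 member called where 15.3% of all genes were. The later PB change minus that at 24 h was called for 0 of 10 members in HC and in MC, where 0.0774% and 0.162% of all genes were, and 0 members had an unadjusted p under 0.05.

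**Figure D4:**
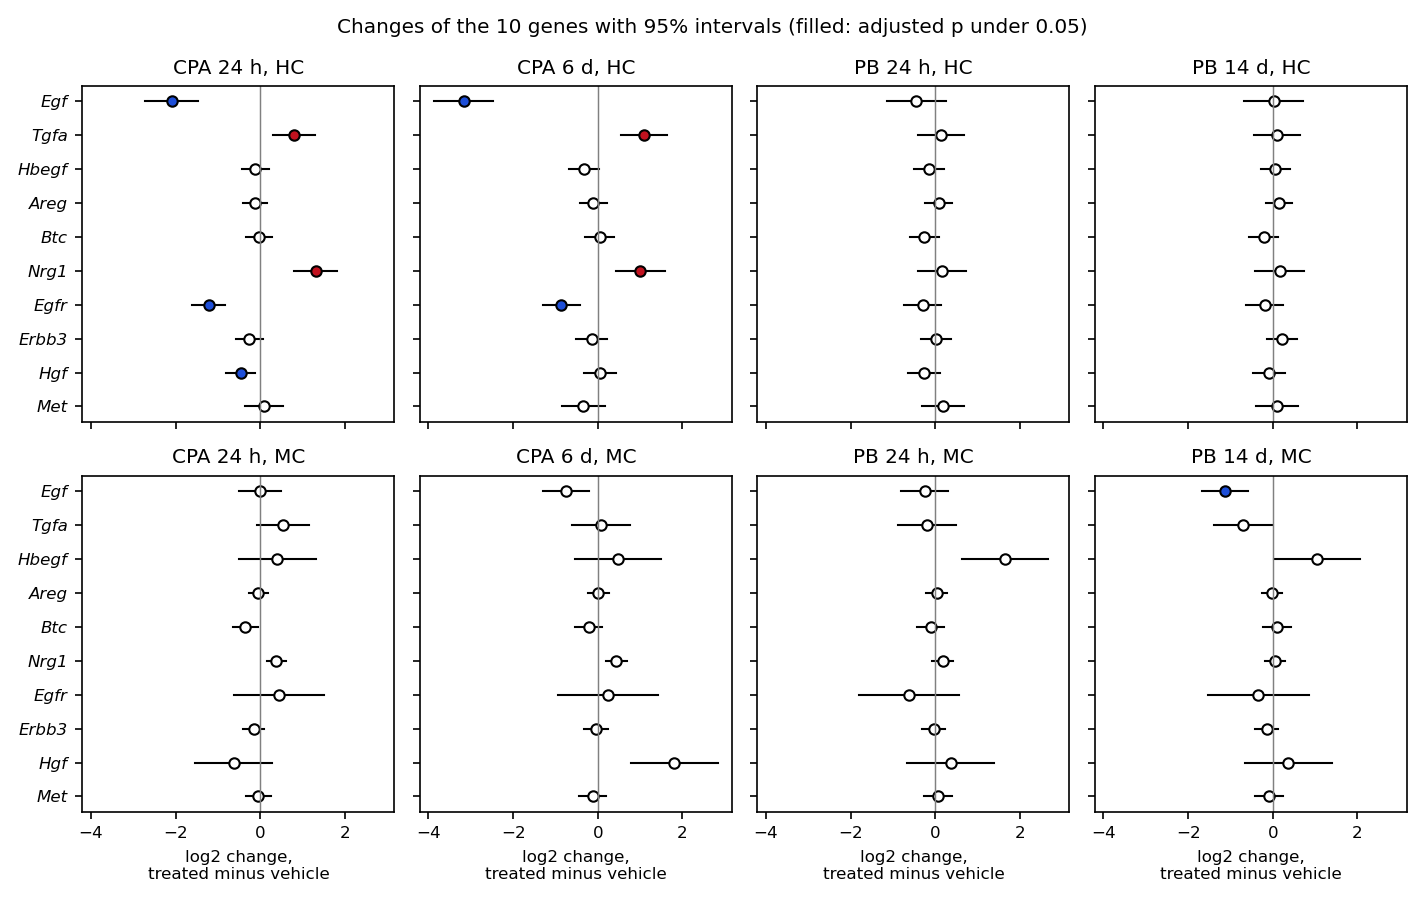
Log2 change (x axis, treated minus vehicle, with 95% intervals) of each gene in hepatocytes (top) and mesenchymal cells (bottom) for CPA and PB at each time; filled points were called at an adjusted p under 0.05, blue lower and red higher. In hepatocytes the called changes are all under CPA, and the interval of Hgf in mesenchymal cells at 6 d of CPA lies above 0 without passing the adjusted threshold.

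The other genes around these receptors were read from lists, whose counts are set beside the share of all genes called in the comparison. In HC after CPA for 24 h, 3 of 6 genes that act in ligand shedding rose and none fell, against 22.5% of all genes that rose. These were Adam17, the sheddase of Tgfa and other ligands (0.45, SE 0.14), and Rhbdf1 and Rhbdf2, its partners in maturation (0.86 and 0.49). At 6 d 2 of 6 were called, near the 24.2% of all genes that were, and Rhbdf2 and Adam17 rose by 1.15 and 0.59. In vehicle arrays Adam17, Rhbdf1 and Rhbdf2 were 3.34, 1.49 and 0.87 lower in HC than in MC. The macrophage marker mean of the same HC arrays was 0.31 lower at 24 h of CPA and 1.18 higher at 6 d. Its part in these changes was not tested. The median change of the 6 was 0.22 at 24 h and 0.43 at 6 d, beside -0.01 for all genes at both times. In MC none of the 6 was called under CPA (limma, and 0 had an unadjusted p under 0.05), with medians of -0.04 and 0.12.

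The list of HGF relatives, activators and their inhibitors split by direction in HC. At 24 h 1 of 10 rose and 3 fell, against 22.5% and 11.7% of all genes. At 6 d 5 rose and 3 fell, 8 of 10 called where 24.2% of all genes were. Hgfac, a plasma protease that activates HGF, fell by 1.50 at 24 h (SE 0.16, adjusted p = 4.73e-08) and by 0.69 at 6 d. F12, coagulation factor XII, fell by 1.21 and 1.05, and Mst1, the liver-made relative of HGF, by 1.01 and 0.73. Plat, tissue plasminogen activator, rose by 1.39 and 2.27, and at 6 d Plau, urokinase, rose by 1.18 and the membrane protease St14 by 0.89. In vehicle arrays Plau was 5.51 and Plat 1.25 lower in HC than in MC, and the macrophage marker mean was 1.18 higher in the same HC arrays at 6 d (exact p = 0.1). Its part in these changes was not tested. In MC, Plat rose by 2.09 at 6 d of CPA (SE 0.52, adjusted p = 0.0255), the only one of these 10 called there.

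Inside the cell, 5 of 19 adaptors and kinases rose and 1 fell in HC at 24 h of CPA, and 4 rose and 2 fell at 6 d. These counts lie near the share of all genes called, 34.2% at 24 h and 24.2% at 6 d, and are no result about the list. Shc1, an adaptor that links receptors to Ras, rose by 1.08 and 0.63, and Gab1, a docking protein of Egfr and Met, fell by 0.62 at 24 h. Pik3r1, the regulatory subunit of PI3-kinase, fell by 1.19 at 6 d. Rps6ka3, a kinase of the list, rose by 1.42 at 6 d. Feedback inhibitors gave 3 higher and 3 lower of 15 at 24 h, and 1 higher and 4 lower at 6 d, again near those shares in total. Dusp1, a phosphatase that inactivates MAP kinases, fell by 0.99 and 2.53, and Spry2, an inhibitor of receptor signalling, by 0.60 and 0.80. Errfi1, which binds and inhibits Egfr, fell by 0.62 at 6 d.

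Of the early targets of the pathway, 3 of 15 rose and 1 fell at 24 h, and 1 rose and 4 fell at 6 d. The 4 and 5 called lie near the shares of all genes, 34.2% and 24.2%. The rises at 24 h were led by Ccnd1 (cyclin D1), which rose by 1.90 (SE 0.30, adjusted p = 1.25e-05), and Myc, which rose by 1.58. At 6 d Jun, Egr1 and Ier2, all early response genes, fell by 1.66, 1.49 and 1.21, and Klf6 rose by 1.37. In vehicle arrays Klf6 was 4.47 lower in HC than in MC, and the part of the macrophage marker rise in its change was not tested. The medians of the list were 0.17 and -0.06. The difference between the times was called for 1 of the 15, which was lower at 6 d, where 11.1% of all genes were called. Of the other ligands (Ereg, Nrg2 and Nrg4) and receptors (Erbb2 and Erbb4), none was called in HC under CPA (limma), and none had an unadjusted p under 0.05. Under PB, no gene of any of these lists was called in HC by limma, where 0 to 2 members of a list had an unadjusted p under 0.05 at 24 h and 0 to 3 at 14 d.

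**Figure D5:**
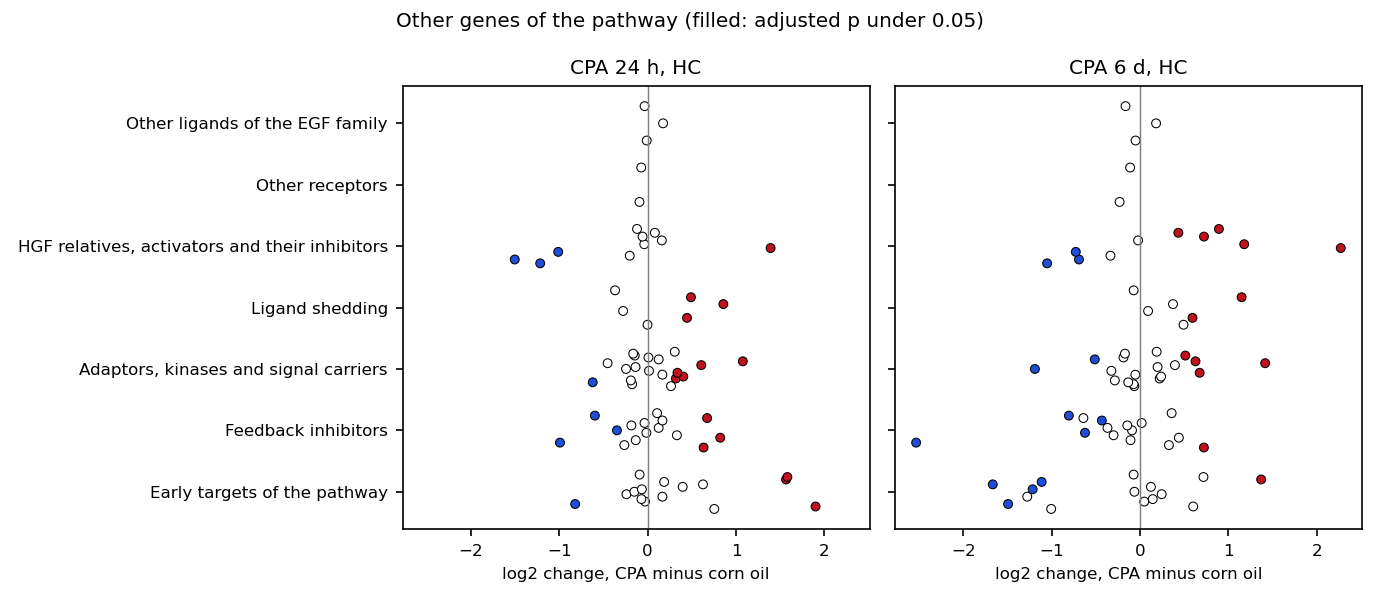
Log2 change (x axis, CPA minus corn oil) in hepatocytes at 24 h (left) and 6 d (right) of the other pathway genes, 1 point per gene, by list (y axis); filled points were called at an adjusted p under 0.05. At 24 h the 3 called ligand shedding genes lie to the right of 0. At 6 d 4 early targets and 4 feedback inhibitors are called to the left, and 1 of each to the right.

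In MC after 14 d of PB, 5 of 15 early targets rose and none fell, against 9.36% of all genes that rose, with a median of 1.17 beside 0.02. Egr1, Etv5, Klf6 and Ier2 rose by 1.81, 1.35, 1.32 and 1.27. Feedback inhibitors gave 5 higher and 1 lower of 15, where 18.4% of all genes were called. Spry4, Spry2 and Cbl rose by 1.31, 1.09 and 0.97, and the change of Errfi1 was -1.76. With the replicate block, 11 of 15 early targets rose, and 10 of 15 feedback inhibitors rose and 1 fell. The share of all genes called was then 32.6%, so these larger counts go with more calls among all genes. Plau rose by 1.12 and Nrg4, a dim ligand gene, fell by 0.73. The hepatocyte, macrophage and endothelial marker means moved on the same arrays as given for Egf, and their part in these list changes was not tested.

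The genes whose levels ran most like each member over the 30 arrays of its brighter fraction describe its pattern across groups. Arrays of a group share their treatment, so these correlations follow the groups and are given as a description with no p. Egf in HC ran most like Rnase4 (Pearson r = 0.93), Amacr (0.93) and Il1r1 (0.92), and Egfr like Itpr1 (0.91), Osbpl8 (0.88) and Afm (0.87). Tgfa ran most like Mbd2 (0.83), and Nrg1 like Ccng1 (0.89). In MC, Hgf ran most like Hivep2 (0.82), Pkia (0.80) and Yes1 (0.79), and Hbegf like the stress and early response genes Ppp1r15a (0.81), Socs3 (0.80) and Zfp36 (0.80). For Areg, Btc, Erbb3 and Met, which were dim, the highest r was between 0.61 and 0.69.

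The 2 corn oil groups at 24 h gave a check on how far members move without treatment. CO_Co and CO differed for 0 of 10 members in HC and 0 of 10 in MC (limma), where 0.0703% and 0% of all genes were called and 0 members had an unadjusted p under 0.05. Egf differed by 0.07 in HC (95% interval -0.50 to 0.65), Egfr by 0.21 (-0.15 to 0.57), Tgfa by 0.31 (-0.14 to 0.76) and Nrg1 by -0.02 (-0.49 to 0.45).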

How the data were processed

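The deposited values are log2 expression levels that the authors made with RMA, per the submitters' processing notes (version and further steps not given in the sources used here). Per the labels, 250 ng of total RNA was labelled for the arrays. Arrays give no read depth, and 3 to 5 per group limit the precision.

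Of 31042 probe sets, 20826 had 1 gene symbol, 436 several and 9780 none, and 20758 (99.7%) of the first matched the GRCr8 gene table by identifier. Comparisons came from limma 3.58.1 in R 4.3.3 (lmFit, eBayes, 1 mean per group, Benjamini-Hochberg over 14217 genes), per fraction for treatment and over 60 arrays otherwise. No sex term was used, since each treated group and its controls hold the same labelled sexes. The Y-linked gene Eif2s3y also contradicts 4 labels. Replicate numbers were taken to pair arrays where same-numbered arrays deviated together from their group means with r over 0.1 in every pair. Of the comparisons, this held throughout only for those of PB at 14 d (0.183 to 0.644). The code was tested on simulated data.

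Named genes were the members, up to 4 called genes without overlap and with the largest change per list and comparison, and the 3 genes most like each member (SD of at least 0.3). The values of Hgfac and Mst1 at 6 d, the levels of Plau and Plat by fraction and the names of other ligands and receptors were added after values were seen. Members and lists were chosen with earlier results of these data known. Alternatives were median centring, the mean of probe sets, a sex term, a replicate block, a floor of 4, array weights, both corn oil groups as control, a hepatocyte covariate and leaving out each array. Leaving out the third arrays at 24 h of PB was added after seeing the data.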

Additional observations from a re-analysis of the deposited data

Results flagged for a closer look

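Egf under CPA differed between the fractions at both times. Its change in HC minus its change in MC was -2.08 at 24 h and -2.42 at 6 d, and all 3 treated HC arrays lay below their controls at each time. Egf in MC averaged 4.03 and 4.35 under corn oil at the 2 times, and its lowest MC array read 2.78, after 14 d of PB. The part of these starting levels in the difference was not tested.

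Nrg1 at 24 h of CPA had a change 0.93 higher in HC than in MC (adjusted p = 0.0276). That call was lost in 7 of 20 alternatives, among them the mean of its probe sets (0.28, adjusted p = 0.139). Its probe sets split into 4 that rose in HC and 4 that did not pass the test.

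Hgf at 6 d of CPA had a change in HC minus its change in MC of -1.77 (adjusted p = 0.0472). That call was lost when most single arrays were left out (limma adjusted p up to 0.126). The change of Hgf in MC was 2.44 higher at 6 d than at 24 h, though its 6 d change in MC did not itself pass the test.

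Over 10 genes and 4 groups of 4 or 5 arrays, 40 combinations in all, chance alone would set an array apart in about 1 in 20. Here 2 were set apart, both in MC with corn oil at 24 h. Egfr read 2.82 on the first array and 3.52 to 3.61 on the others, and Btc read 2.21 on the fifth array and 2.56 to 2.67 on the others. Both genes were dim in that group.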

How the results depend on the processing

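Of 2752 member values recomputed under alternatives, 2688 kept their side of the threshold, 29 lost a call, 35 gained one and 0 reversed a called direction. Under CPA in HC, the calls of Egf, Egfr and Nrg1 at both times and of Tgfa at 6 d held under every alternative run, with Egf between -2.36 and -1.88 at 24 h and between -3.52 and -2.89 at 6 d. Nrg1 lay between 0.46 and 1.78 at 24 h and between 0.43 and 1.19 at 6 d, lowest with the mean of its probe sets. With each array centred on its median, Hbegf was also called there at 6 d (-0.50, adjusted p = 0.0353). In MC the number of members called moved. For PB at 24 h it was 1 with array weights, against 0. For PB at 14 d it was 2 with array weights and 0 with the hepatocyte covariate, against 1. For CPA at 24 h it was 1 with the sex term, 2 with array weights, 1 with both corn oil groups and 1 with the hepatocyte covariate, against 0. For CPA at 6 d it was 2 with the sex term, 1 with genes of at least 4 only, 3 with array weights and 2 with the hepatocyte covariate, against 0. The cause was not tested. In the main fits of these comparisons 0%, 18.4%, 2.54% and 2.23% of all genes were called, in the order given. The shares under each alternative are not set beside the counts, so the counts are no result about the members.

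Replicate numbers were checked for pairing. Same-numbered treated and vehicle arrays correlated in their deviations at -0.183 to 0.679 (14 of 24 pairs over 0.1). HC and MC arrays did so at -0.005 to 0.456 (21 of 30). Only in the comparisons of PB at 14 d were the pairs of all groups over 0.1. HC and MC arrays of CO at 24 h (5 of 5 pairs) and of PB at 24 h (3 of 3) were over it too. A pair under 0.1 does not show that arrays are unpaired. Tests between fractions may therefore treat arrays of 1 liver as independent. With the replicate block, 3 members were called for PB at 14 d in MC and 1 for its difference between fractions, where 32.6% and 15.3% of all genes were. The block changed no other member's call at 14 d. Elsewhere it called 1 for CPA at 24 h in MC (Btc, -0.42, adjusted p = 0.0453) and Egfr for the difference between fractions under CPA at 24 h (adjusted p = 0.0299), and Hgf in HC at 24 h of CPA was not called (-0.47, adjusted p = 0.081).

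Leaving out 1 array at a time gave 4 to 5 members called for CPA at 24 h in HC, 4 at 6 d, 0 to 2 for PB at 14 d in MC, and 0 to 1 for CPA at 24 h and at 6 d in MC. The main fits called 34.2%, 24.2%, 18.4%, 2.54% and 2.23% of all genes there. For the difference between fractions, leaving out 1 array gave 0 to 1 for PB at 14 d, 1 to 3 for CPA at 24 h and 1 to 2 at 6 d. For CPA in HC at the later time minus 24 h it gave 0 to 1. The main fits called 10.1%, 8.43%, 4.58% and 11.1% of all genes in these comparisons. Shares in the runs with an array left out are not set beside the counts, which are no result about the members. With the sex term, Btc was not called between the fractions (0.21, adjusted p = 0.288). The number of arrays and the dim level of 8 members in at least 1 fraction limit what could be detected.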
